A study of Mus with 6 samples.

Results

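The RNAs described here carry RIKEN clone names that start with 1700 and end in Rik, that is, names given to cDNA clones first isolated from adult mouse testis libraries. All such names were taken from the deposited table of named RNAs, which gave 196 of its 2282 names. The tissue was the right substantia nigra pars compacta, a midbrain nucleus whose dopaminergic neurons project to the striatum and degenerate in Parkinson's disease. All 6 samples shared 1 mouse genotype, overexpression of human alpha-synuclein with the A53T substitution, so there was no group without the transgene. The labels do not give the promoter or vector that drives the overexpression, or the age of the animals. Model samples (n = 3) came from mice given vehicle, 0.9% sterile saline, and AVE0991 samples (n = 3) from mice given 10 mg/kg AVE0991, in both cases by intraperitoneal injection every day for 30 days. AVE0991 is a small non-peptide agonist of Mas, the receptor for angiotensin-(1-7). The labels do not say that each sample came from a separate animal, so p-values reflect only how far these samples spread, and that spread may be technical.

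A RIKEN clone name records where a cDNA was first cloned and says nothing of where else the RNA is made. Transcription in the male germ line is unusually broad, and many long non-coding RNAs (lncRNAs) were therefore first met in testis libraries. Some lncRNAs lie alone between coding genes, while others lie within the introns or on the opposite strand of a coding gene and can be hard to tell from its unspliced RNA.

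In RefSeq (GRCm38.p6), 195 of the 196 names matched a gene symbol, and 1700129L04Rik did not. RefSeq lists 190 of them as lncRNA, 3 as transcribed pseudogenes (1700028B04Rik, 1700084J12Rik and 1700128F08Rik) and 2 as protein-coding (1700065D16Rik and 1700071K01Rik). The annotated span of 56 members overlaps a protein-coding gene, and 38 of these lie wholly inside one. The other 139 matched members overlap no coding gene. For the overlapping members, reads of the RNA and of the coding gene cannot be told apart here, since the sources used here do not state whether counting used the strand. The median span was 6574 bases, against 7876 bases over the 2271 names of the table with a match. No coordinates are given, because the deposited data were made on another build.

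The table gives each name a mean normalized count per group, a count divided by a library factor, and not divided by transcript length. These values therefore compare samples and not RNAs. The 6 library values behind each pair of means were recovered as whole counts for the 189 members with any count. Within a group the libraries bear the letters a to c, which are not the replicate numbers of the labels. In the deposited table by identifier the libraries held 37036986 to 52029003 counts.

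Model library c stood closer to the AVE0991 libraries than the other model libraries did. Over the 148 members tested, it was the model library nearest to the AVE0991 mean for 77 (52.0%), against 33 for library a and 38 for library b. Over all 1867 names tested the share was 51.7%, so this was not limited to the 1700 series. Across the 148 members, which are not independent, Spearman's rho with the AVE0991 libraries was 0.943 to 0.952 for model library c and 0.902 to 0.930 for model libraries a and b.

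Most of the testis-cloned RNAs had counts in the midbrain. Either group mean was at least 10 normalized counts for 152 of the 196 members (77.6%) and at least 100 for 85 (43.4%). Over all 2282 names the shares were 84.1% and 56.9%. For the other large testis-cloned series in the table, the 341 clone names from 4921 to 4933, they were 76.5% and 45.2%. A mean of at least 1000 was reached by 24 members and of at least 10000 by 4.

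Few members reached a level in 1 group alone. A mean of at least 10 was found with AVE0991 only for 5 members and in the model group only for 6, and in both groups for 141. At 100 the numbers were 5, 6 and 74. Just above the lower threshold lay 1700125G22Rik, at 10.5 with AVE0991 and 5.32 in the model group, and 1700031A10Rik, at 10.8 and 3.57. Just below it lay 1700041C23Rik, at 2.04 and 9.83, and 1700084J12Rik, at 8.97 and 8.01. Around the upper threshold, 1700108J01Rik had means of 95.0 and 100.1 and 1700040D17Rik of 102 and 101, while 1700007P06Rik, at 93.9 and 60.7, and 1700121N20Rik, at 96.6 and 56.1, fell short.

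**Figure D1:**
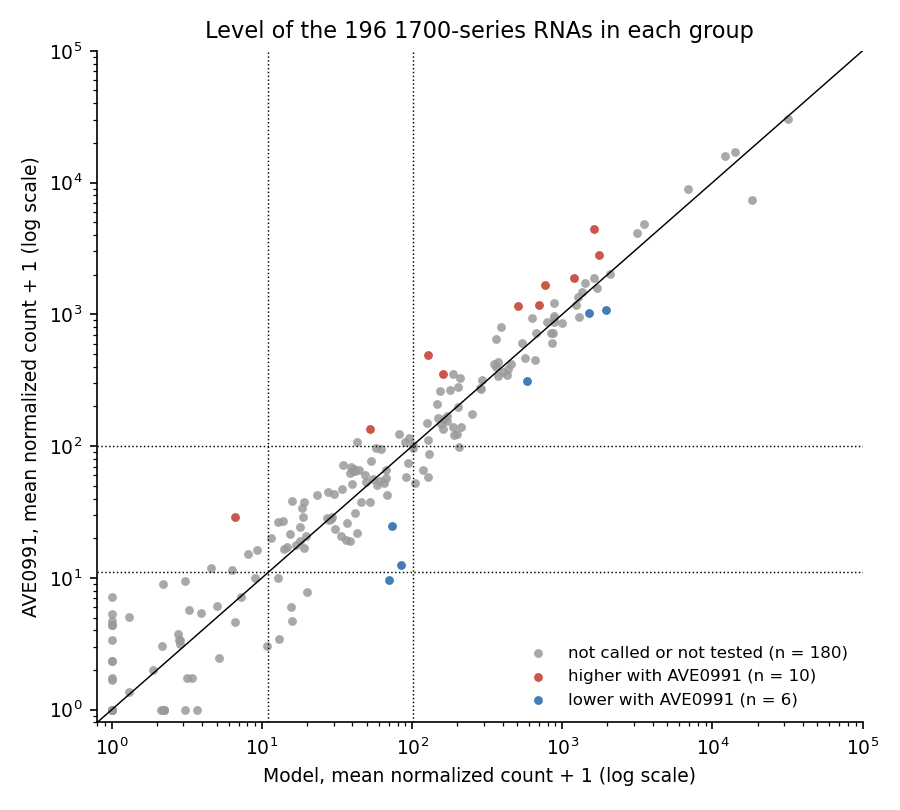
Each point is 1 of the 196 members, with its mean normalized count plus 1 in the model group (x, log scale) against that with AVE0991 (y, log scale). The solid line marks equal means and the dotted lines a mean of 10 and of 100; most points lie along the line, with 10 members called higher (red) and 6 called lower (blue).

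At the low end, 37 members had a count but stayed under 10 in both groups, and 7 had none in any library. If each count were an independent read, a count of 0 would allow up to 3 counts in a library, for counting error only. Members with a count in 1 library alone numbered 14, with 2 to 12 counts there; 1700061N14Rik, for example, had 12 counts in AVE0991 library c and 1700003P14Rik had 11 in AVE0991 library b. For these 14 the authors' deposited test has a statistic of 1 or -1 with 2 degrees of freedom, whatever the count. With AVE0991 only, 10 members had counts, and in the model group only, 7.

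The low counts were not evenly spread over whole numbers. Of 133 library values of the members from 1 to 12, 57 (42.9%) were 4, 8 or 12, and a count of 4 was found 28 times against 4 times for a count of 1. Over all names the share was 45.7% of 1441 values. The excess lay at 4 and 8, since in members a count of 12 was found 10 times, against 14 times for 11. If 1 read could enter the counts more than once, a mean of 10 would rest on fewer reads than it shows, and the limit of 3 counts for a 0 would be too low. Whether this happened was not tested, and no counting interval is given for such values.

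**Figure D2:**
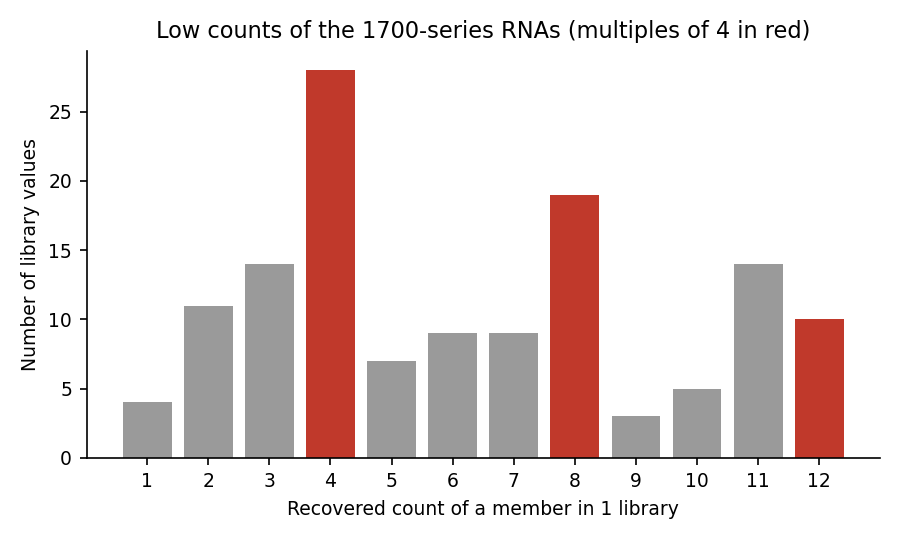
Bars give how many library values of the members equal each count from 1 to 12 (x, recovered count in 1 library; y, number of values), with multiples of 4 in red. The bars at 4 and 8 stand at 28 and 19, above their neighbours.

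A few members held most of the counts. The 10 most abundant made up 69.9% of the summed mean counts of the 196 members, and the first 3 made up 43.9%. The highest was 1700025M24Rik, an RNA between Fryl and Ociad1. Its normalized counts were 34563, 29442 and 26573 with AVE0991 and 30557, 31887 and 33704 in the model group, so the groups overlapped (log2 fold change -0.04 ± 0.12, SE; adjusted p = 0.870, edgeR).

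The next in order were 1700112J16Rik, between Adamts17 and Lysmd4, and 1700010K23Rik, inside Cadm2, the gene of a cell adhesion molecule. In 1700112J16Rik the values were 18299, 15689 and 16858 with AVE0991 and 13507, 13852 and 15248 in the model group. In 1700010K23Rik they were 17953, 14452 and 15450.0 with AVE0991 and 10704, 11720.2 and 13899 in the model group. All AVE0991 values lay above all model values in both RNAs, yet neither passed the edgeR test (adjusted p = 0.128 and 0.0739). 1700010K23Rik did pass with library totals only (adjusted p = 0.0496, edgeR), with robust edgeR (adjusted p = 0.04995), with limma-voom (adjusted p = 0.0399) and with DESeq2 (adjusted p = 0.0239), while 1700112J16Rik passed in none of the 15 alternatives. Their log2 fold changes were 0.31 ± 0.12 and 0.45 ± 0.15 (SE).

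The most variable of the 78 members with a mean of at least 100 over both groups was 1700064M15Rik, between the transcription factor gene Foxn3 and Efcab11. It had 52289.9 normalized counts in model library c and 950.2 and 1873 in model libraries a and b, with 1599, 11503 and 8847 in the AVE0991 libraries. A single library thus set the model mean, 18371 ± 29378 (SD, n = 3), and the groups overlapped (log2 fold change -1.27 ± 1.31, SE; adjusted p = 0.564, edgeR). Without model library c the log2 fold change was 2.43, with no call (adjusted p = 0.0533, edgeR). The values of 1700104L18Rik were 1748, 291 and 358 with AVE0991 and 428, 296 and 452 in the model group, so there 1 AVE0991 library stood apart.

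Most abundant members were steadier. Of the same 78, 51 differed by less than 2-fold between their lowest and highest library, and the median ratio of highest to lowest was 1.75. The steadiest was 1700066J03Rik, from 262 to 297 normalized counts over all 6 libraries. The others among the 10 most abundant without a call were 1700030F04Rik, next to the chemokine gene Cxcl12, 1700006F04Rik (inside Hs6st3), 1700080N15Rik (inside Frmd4a) and 1700012D16Rik (inside St6galnac3). Of these, 1700006F04Rik and 1700080N15Rik had groups that did not overlap, with log2 fold changes of 0.52 ± 0.17 and 0.46 ± 0.16 (SE; adjusted p = 0.0699 and 0.0913, edgeR); DESeq2 called both (adjusted p = 0.0209 and 0.0464), and library totals and limma-voom the first alone.

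Summed over members, the counts followed the same single RNA. The sums ran from 136917 to 143861 normalized counts in the AVE0991 libraries but were 112835 and 115442 in the first 2 model libraries and 179654 in model library c. With 1700064M15Rik left out they ran from 128071 to 142262 and from 111885 to 127364, and the groups no longer overlapped. In bulk tissue, fewer cells of a type and less RNA per cell cannot be told apart.

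The comparison of AVE0991 with model samples asked which of these RNAs differ with the drug in mice of the same genotype. Of the 148 members that passed the filter on low counts, 10 rose, 6 fell and the rest did not pass (edgeR quasi-likelihood test, Benjamini-Hochberg adjusted p under 0.05 over 1867 names). This is 10.8% of the members tested, against 15.9% of all names tested; by direction the backgrounds are 7.61% higher and 8.3% lower. The 16 calls are thus no more than the share found over the whole table. At an unadjusted p under 0.05 there were 35 members (23.6%), against 30.9% of all names tested. The other 48 were not tested, 7 of them with no count at all.

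The number of calls changed with the libraries that entered the fit. When each AVE0991 library was dropped in turn (a, then b, then c), 6, 5 and 4 members were called. Dropping each model library in the same order gave 4, 3 and 25. Only 1700096J18Rik and 1700020N18Rik kept their call in all 6 of these fits. For each of the other 14 members, the call was lost in at least 1 of them. Over all names, 21.7% were called without model library c, against 15.9% with all 6 libraries. For the fits without any other library, the share over all names is not given here. Whether their loss of calls was particular to the members was therefore not tested.

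Among all 148 tested members the log2 fold changes leaned upward. Their median was 0.15, with 89 above 0 and 59 below, and the quartiles were -0.22 and 0.63. Over all names tested the median was -0.01, and 0.04 with the 220 miRNA-named loci set aside. The 255 tested clones from 4921 to 4933 had a median of 0.12, with 155 above 0. No test of these differences between kinds of names was made. AVE0991 and model values did not overlap for 51 of the 148 members, 30 higher (20.3%) and 21 lower (14.2%). The same held for 38.9% of all names tested, 16.5% higher and 22.4% lower.

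**Figure D3:**
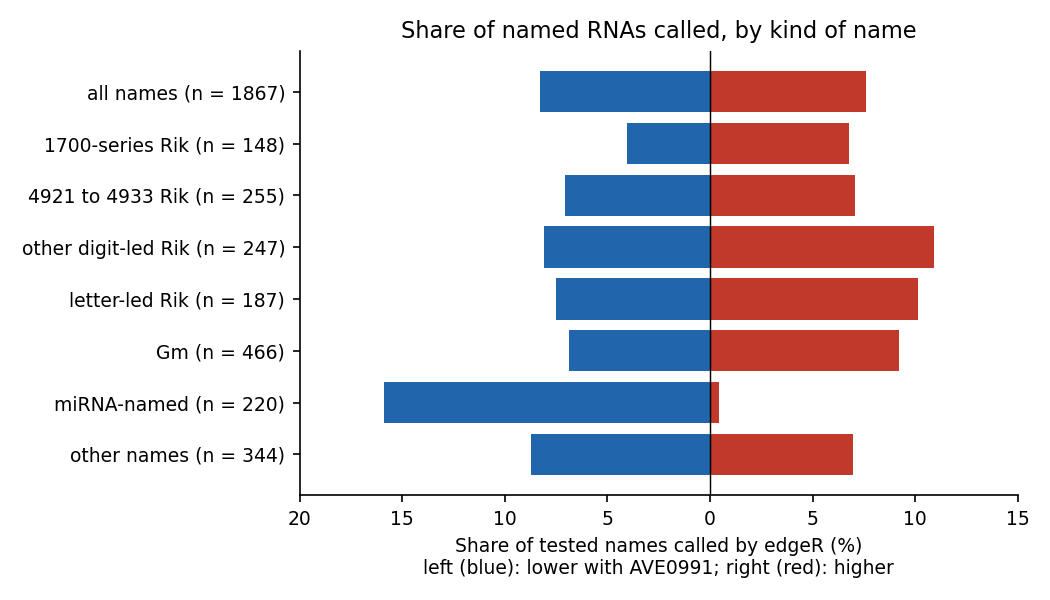
Bars give the share of tested names called by edgeR (x, %), to the right for higher and to the left for lower with AVE0991, for all names and for each kind of name (y, with the number tested). The 1700-series bars, 10 higher and 6 lower of 148, are no longer than those for all names.

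The level of a member went along with how often it was called. Of 22 tested members with a mean of at least 1000 over both groups, 4 rose and 2 fell (27.3%), against 25.1% of all names at that level. From 100 to 1000 the share was 8.93% of 56 members, against 19.3% of all names. From 10 to 100 it was 7.35% of 68 members, against 5.61%. The median coefficient of variation between libraries of a group was 31.6% with AVE0991 and 34.3% in the model group from 10 to 100, and 10.5% and 13.6% at 1000 or more.

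The clearest rise was that of 1700096J18Rik, an intergenic RNA between Rgs9, the gene of a regulator of G protein signalling that is abundant in striatum, and Gna13, which encodes a G protein alpha subunit. Its normalized counts were 478, 547 and 449.6 with AVE0991 and 116, 111 and 152 in the model group. The lowest AVE0991 library lay far above the highest model library. The means were 491 ± 50.1 and 127 ± 22.6 (SD, n = 3 each), and the log2 fold change was 2.01 ± 0.20 (SE; adjusted p = 0.00097, edgeR). The authors' deposited table gives a statistic of 11.5 with 2.78 degrees of freedom and an unadjusted p of 0.00199, the highest statistic of any member. The log2 fold change stayed between 1.91 and 2.16 in the 15 alternatives run, and the call held in each.

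The largest rise in counts among the calls was that of 1700086L19Rik, between Syt16, a synaptotagmin gene, and Dbpht2. It had 5257, 4293 and 3824 normalized counts with AVE0991 and 1351, 1072 and 2472 in the model group. The groups did not overlap, and model library c was again the nearest. The log2 fold change was 1.50 ± 0.30 (SE; adjusted p = 0.0138, edgeR), and the authors' statistic in the deposited table was 4.71 with nearly 4 degrees of freedom. The call was lost without AVE0991 library a (adjusted p = 0.0506, edgeR) and without model library a (adjusted p = 0.0766, edgeR).

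Further RNAs that rose lie between coding genes. 1700007F19Rik, between the profilin gene Pfn2 and Tsc22d2, had 1945, 1489.6 and 1583 normalized counts with AVE0991 and 502, 628 and 1157 in the model group. 1700017J07Rik, between Zfp64 and Tshz2, both genes of zinc finger proteins, had 2928, 2793 and 2798 with AVE0991 and 1578, 1552 and 2172 in the model group. In both RNAs the high model value was that of library c. Their log2 fold changes were 1.18 ± 0.29 and 0.74 ± 0.16 (SE; adjusted p = 0.0306 and 0.0195, edgeR), with authors' statistics of 3.73 and 5.18 (3.56 and 2.19 degrees of freedom) in the deposited table. Both calls were lost on dropping any library but model library c.

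Less abundant RNAs of this kind rose too. 1700020M21Rik, between the ribosomal protein gene Rpl14 and Ctnnb1, which encodes beta-catenin, had 284, 329 and 444 normalized counts with AVE0991 and 163, 106 and 212 in the model group. 1700008K24Rik, between Lrfn2 and Mocs1, had 175, 128 and 97.7 with AVE0991 and 31.4, 50.1 and 72.1 in the model group. Their log2 fold changes were 1.19 ± 0.30 and 1.43 ± 0.36 (SE; adjusted p = 0.0314 and 0.0317, edgeR). Here too both calls were lost on dropping any library but model library c. The largest fold among the rises was at a low level, in 1700102H20Rik, between Tfb1m and Nox3. Its values were 36.3, 29.6 and 17.4 with AVE0991 and 8.48, 2.68 and 5.54 in the model group, a log2 fold change of 2.33 ± 0.67 (SE; adjusted p = 0.0471, edgeR). That call was lost whichever of the 6 libraries was dropped (adjusted p = 0.0850 to 0.170, edgeR) and in 3 of the 8 other alternatives that tested it.

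The remaining rises, 3 of 10, overlap coding genes, so RNA of those genes may be part of the counts. 1700085C21Rik lies inside Rgs6, the gene of another regulator of G protein signalling. It had 1634, 1896 and 2146 normalized counts with AVE0991 and 1089, 1097 and 1394 in the model group (log2 fold change 0.72 ± 0.17, SE; adjusted p = 0.0260, edgeR). 1700071K01Rik, which RefSeq lists as protein-coding, lies inside Asic2, which encodes an acid-sensing ion channel. It had 982, 1047 and 1425 with AVE0991 and 316, 396 and 796 in the model group (log2 fold change 1.25 ± 0.34, SE; adjusted p = 0.0417, edgeR). In neither RNA did the groups overlap. The call of 1700071K01Rik was lost on dropping any library but model library c. That of 1700085C21Rik held only on dropping AVE0991 library a or model library c.

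1700027H10Rik overlaps part of Pcdh10, a protocadherin gene. Its values were 1030.0, 1119 and 1367 with AVE0991 and 574, 638 and 883 in the model group (log2 fold change 0.80 ± 0.21, SE; adjusted p = 0.0364, edgeR). The next name of the table beside it, 2610316D01Rik, with no coding gene between them, rose by 0.90 on the log2 scale (adjusted p = 0.00889, edgeR). It was the single call among 7 tested names that lie beside a changed member with no coding gene between. Beside 1700039E22Rik, for example, 4930414N06Rik had 0.28 (adjusted p = 0.477, edgeR), and beside 1700020M21Rik, 5830454E08Rik and 4930593C16Rik had -0.05 and 0.09. In the deposited table the authors' statistics of the 3 rises that overlap coding genes were 3.91, 3.20 and 3.44. The call of 1700027H10Rik was lost on dropping any library but model library c.

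**Figure D4:**
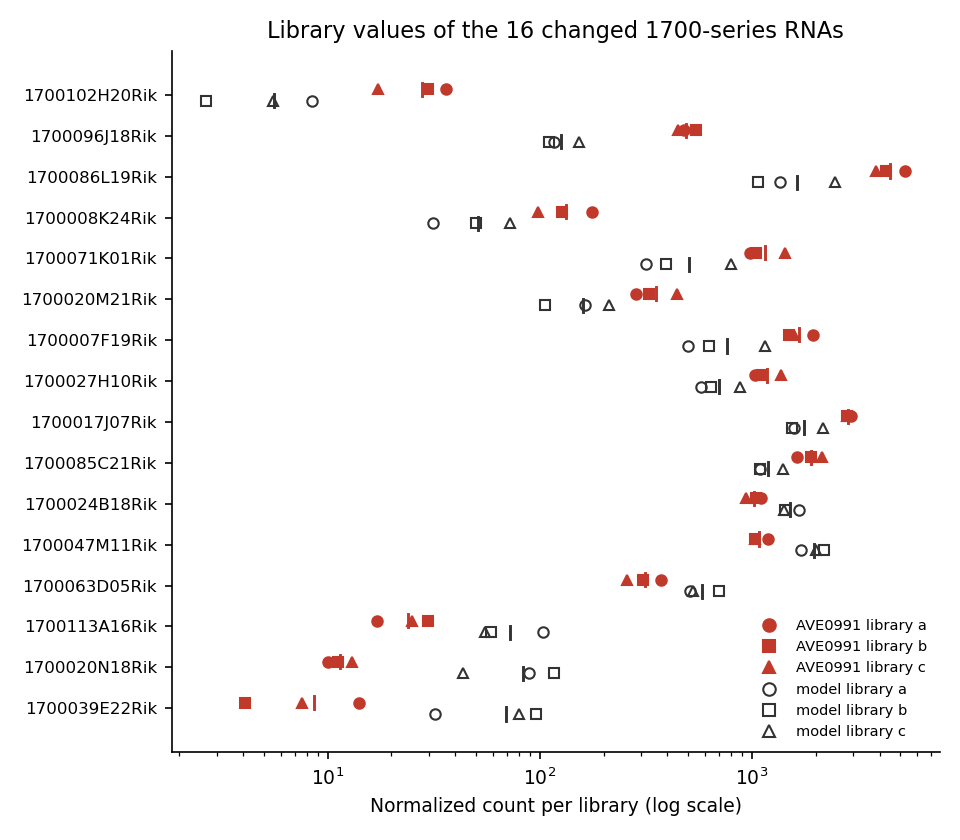
Each row is 1 of the 16 changed members, ordered by log2 fold change, with its normalized count in each library (x, log scale; filled red AVE0991, open black model) and short bars at the group means. No row has overlapping groups, and in 9 of the 10 that rose the highest model value is that of library c.

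Among those that fell, 1700020N18Rik had the smallest p. It lies between Ilkap and Hes6, a gene of the Hes family of transcription factors. Its normalized counts were 10.1, 11.2 and 13.03 with AVE0991 and 89.1, 117 and 43.4 in the model group, so all 3 treated libraries were low and the model libraries varied widely. The log2 fold change was -2.80 ± 0.48 (SE; adjusted p = 0.00847, edgeR), and the call held in all 15 alternatives, with an adjusted p of at most 0.0494. The authors' deposited table gives it a statistic of -3.34 with 2.01 degrees of freedom and an unadjusted p of 0.0789.

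1700039E22Rik lies inside Pax2, a paired-box transcription factor gene that acts in the patterning of the midbrain and hindbrain border. It had 14.1, 4.08 and 7.60 normalized counts with AVE0991 and 32.2, 95.8 and 79.5 in the model group, with no overlap. The log2 fold change was -2.93 ± 0.62 (SE; adjusted p = 0.0172, edgeR). The call was lost on dropping AVE0991 library b, AVE0991 library c or model library b (adjusted p = 0.0535, 0.0616 and 0.0801, edgeR) and with limma-voom (adjusted p = 0.0674). In the authors' deposited test its unadjusted p was 0.0830.

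The abundant RNAs that fell did so by less than 2-fold. 1700047M11Rik, between Degs1, a gene of sphingolipid synthesis, and Fbxo28, had 1185, 1030.5 and 1039 normalized counts with AVE0991 and 1703, 2175 and 2015 in the model group. 1700063D05Rik, next to Ubash3b, had 372, 306 and 258 with AVE0991 and 511, 699 and 529 in the model group. Their groups lay well apart, with log2 fold changes of -0.80 ± 0.14 and -0.84 ± 0.20 (SE; adjusted p = 0.00921 and 0.0256, edgeR). The call of 1700047M11Rik was lost in 1 of the 15 alternatives, without model library b (adjusted p = 0.0524, edgeR). That of 1700063D05Rik was lost without AVE0991 library b or c (adjusted p = 0.0799 and 0.0811, edgeR). It was also lost without model library a or b (adjusted p = 0.0574 and 0.0945, edgeR).

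The other members that fell overlap coding genes. 1700024B18Rik lies inside Fgf14, whose product regulates voltage-gated sodium channels. It had 1101, 1044 and 940.4 normalized counts with AVE0991 and 1670.5, 1438 and 1411 in the model group (log2 fold change -0.50 ± 0.14, SE; adjusted p = 0.0456, edgeR), the smallest change that was called. 1700113A16Rik overlaps part of Mef2d, the gene of a transcription factor of neurons and muscle. Its values were 17.1, 29.6 and 24.98 with AVE0991 and 104, 59.1 and 55.4 in the model group (log2 fold change -1.55 ± 0.42, SE; adjusted p = 0.0417, edgeR). The call of 1700024B18Rik was lost on dropping any library but model library c, and in 3 other alternatives. That of 1700113A16Rik was lost on dropping the same 5 libraries and with limma-voom.

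Changed RNAs of both directions lay beside and within coding genes. Of those tested, 3 of 10 that rose, 3 of 6 that fell and 42 of those that did not pass overlap a coding gene. Their median spans were 4338, 6836 and 6470 bases. These are descriptions, with no test.

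The authors' own test ranks the members partly in another way. Their deposited table gives a statistic for 189 members, 106 above 0 and 83 below, with degrees of freedom from 2 to nearly 4 and a median of 3.02. Its unadjusted p was under 0.05 for 25 members (16 higher and 9 lower), of 189, against 18.8% of all names (8.19% higher and 10.6% lower). Adjusted here over all names by Benjamini-Hochberg, none passed, and the smallest adjusted value of a member was 0.212. Of the 25, 13 were among the 16 that edgeR called. The other 3 calls, 1700020N18Rik, 1700039E22Rik and 1700113A16Rik, had authors' p-values of 0.0789, 0.0830 and 0.0803. Their model values were widely spread, but this held for some of the 13 as well. In 1700071K01Rik, for example, the coefficient of variation in the model group was 51.1% and the authors' unadjusted p was 0.0331.

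A few members had an extreme statistic, even libraries and no edgeR call. 1700109G14Rik had the lowest statistic of all members, -6.78 with 2.61 degrees of freedom (unadjusted p of 0.0101 in the authors' deposited table). It had 116, 125 and 129 normalized counts with AVE0991 and 213, 199.6 and 178 in the model group, a log2 fold change of -0.62 ± 0.20 (SE; adjusted p = 0.0699, edgeR). 1700113B09Rik, between Bicc1 and Tfam, the gene of a mitochondrial transcription factor, had a statistic of 4.33. Its values ran from 109 to 121 with AVE0991 and from 89.1 to 99.8 in the model group, so the groups did not overlap, but the log2 fold change was 0.32 ± 0.22 (SE; adjusted p = 0.366, edgeR). In 1700100I10Rik, between Slitrk5 and Gpc5, the 3 AVE0991 values lay between 32.3 and 33.7, and a statistic of 4.93 came with an adjusted p of 0.226 (edgeR).

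**Figure D5:**
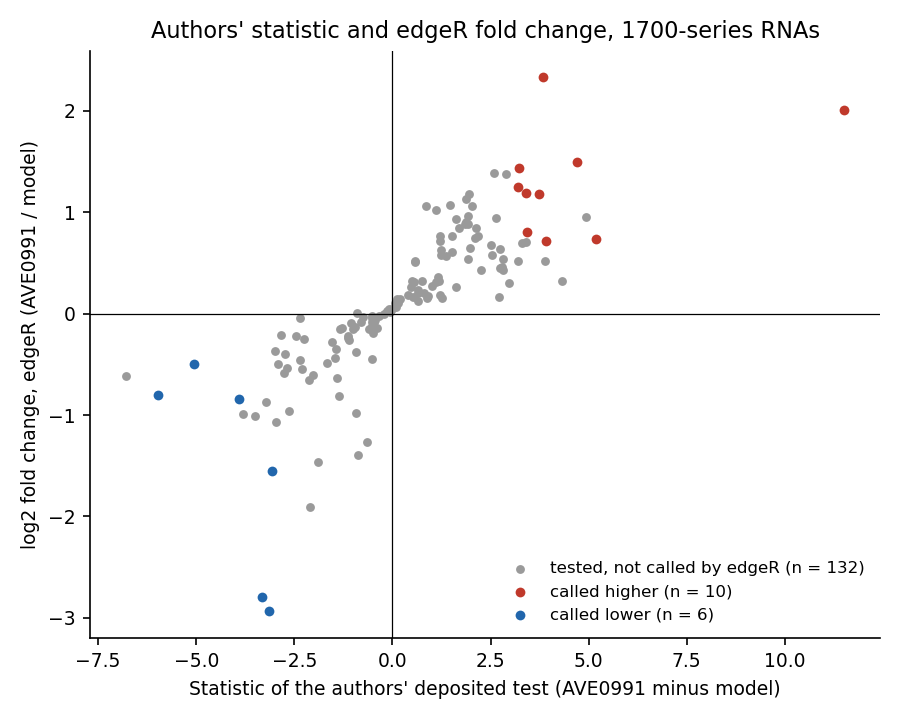
Points are the 148 tested members, with the statistic of the authors' deposited test (x) against the log2 fold change by edgeR (y); red and blue mark the 10 members called higher and the 6 called lower. Both measures share their sign for 139 of the 148, and the point farthest right is 1700096J18Rik at a statistic of 11.5.

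Without model library c, 19 members rose and 6 fell, and 15 of these 25 were among the 16. These were 16.4% of the 152 members tested in that fit, against 21.7% of all names (11.5% higher and 10.2% lower), so calls rose over the whole table. That fit leaves out the model library that lay nearest to the AVE0991 libraries, so its added calls are no independent result. The 10 that were added all rose; they include the abundant 1700010K23Rik, 1700030F04Rik, 1700006F04Rik and 1700080N15Rik, with log2 fold changes of 0.56, 0.61, 0.68 and 0.59 in that fit, and 1700025J12Rik, with 2.11. In 1700025J12Rik the values were 89.7, 134 and 93.4 with AVE0991 and 26.3 and 24.2 in model libraries a and b, against 75.8 in model library c.

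Markers of cell types could not be checked for these samples by name. That table holds none of the 7 dopaminergic neuron markers listed, Th and Slc6a3 among them, and none of the listed markers of testis germ cells (11), ependyma and choroid plexus (6), microglia (3), oligodendrocytes (3) or astrocytes (3). It does hold 9 of 13 listed lncRNAs of brain cells. Counts could not be recovered for Malat1 and Meg3, which were thus not tested. The means in the authors' deposited table were 55783 with AVE0991 and 116306 in the model group for Malat1, and 218164 and 213794 for Meg3. Of the 7 that could be tested, 2 were higher with AVE0991 and 5 did not pass. Dlx6os1, an antisense RNA of forebrain interneuron precursors, had 14379, 19978 and 17491 normalized counts with AVE0991 and 2257, 1566 and 4291 in the model group, a rise of 2.73 ± 0.36 on the log2 scale (SE; adjusted p = 0.00246, edgeR). Miat, a lncRNA of neurons, rose by 0.96 ± 0.22 (SE; adjusted p = 0.0245, edgeR). Summed over the 7, the counts of the AVE0991 libraries were 128590 to 144928, and those of the model libraries 93144 to 116472. That gap lay mainly in 2 RNAs. The means were 38198 with AVE0991 and 20390 in the model group for Miat, and 17283 and 2705 for Dlx6os1. Of the 5 that did not pass, Pantr1, Neat1 and Rmst had log2 fold changes of 0.67, 0.22 and 0.02. Peg13 and Sox2ot had -0.08 and -0.17. Over all 9, the summed means of the authors' deposited table were 408629 with AVE0991 and 433653 in the model group, so the direction of the sum turned. Of the 2 RNAs added, only Malat1 was lower with AVE0991. The part of these differences in the changes of the 1700-series RNAs was not tested.

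By likeness over the 6 libraries, 1700096J18Rik was closest to 5033403H07Rik, Gm2721 and AU023762 (Pearson's r = 0.989, 0.989 and 0.988 of log2 normalized counts). Those closest to 1700020N18Rik were AA536875, Tmem132cos and 6030443J06Rik (r = 0.997, 0.996 and 0.995). All 6 had calls in the same direction as the member, which their choice by closeness to a changed member makes likely. The r covers the difference between the groups as well as the spread within them.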

How the data were processed

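The authors deposited counts per NONCODE identifier, used here for depth only, and a table by gene name whose values are, per the file headers, the mean signal of each group, their fold ratio and its log2 (each mean plus 1), and the statistic, degrees of freedom and p-value of a test per name. Per the labels' protocols, reads were checked with FastQC 0.11.8 and trimmed with fastp 0.19.5; the submitters' processing notes list build mm9, STAR 2.7.7a and DESeq2 1.10.1. For the counting program and the way names were assigned, the sources used here state nothing.

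Whole counts were recovered from each pair of means with its statistic and degrees of freedom (relative tolerance 1e-09 on the mean). A single set of counts fitted 2242 (99.8%) of the 2247 names above 0, all 189 such members included; 5 names above the level solved were left out of library sizes and tests. Tested on simulated data, 2233 of 2235 names had 1 set, always the simulated one. The main test was edgeR 4.0.16 (quasi-likelihood, TMM, filterByExpr; R 4.3.3) over all names; the SE was taken as the size of the log2 fold change over the root of F. On 1826 simulated names, 49.1% of 106 changed 2-fold and 88.9% of 90 changed by 2 on the log2 scale were called, and 2.94% of calls were unchanged names. Members were named by rule: every call with no overlap, the smallest p, the 10 most abundant, those next to the level thresholds, the extreme authors' statistics and the largest disagreements of both tests. RNAs named beyond that rule (1700129L04Rik, those RefSeq does not list as lncRNA, the examples with counts in 1 library, 1700104L18Rik, 1700066J03Rik, 1700025J12Rik, the neighbouring names) were chosen after their values were seen. 1700016P03Rik and 1700020I14Rik, also listed by name, were not analysed here. The members and lists were chosen with earlier results of these data known. Alternatives were DESeq2 1.42.0, limma-voom (limma 3.58.1), other scaling and filters, and each library left out.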

Additional observations from a re-analysis of the deposited data

How the results depend on the processing

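The number of members called, 16, was 14 to 19 under other scaling, other filters, robust fitting and limma-voom, and under 2 alternatives chosen after seeing the data (counts divided by 4, and miRNA-named loci left out, 15 each). DESeq2 called 25, 19 of them higher, and all 16 were among them. With library totals only, 14 were higher and 5 lower, against 10 and 6. A 2-fold minimum left 10. For these alternatives the share called over all names is not given here. How far the changes in number were particular to the members was therefore not tested. The authors' test gave 25 at an unadjusted p under 0.05 and 0 after adjustment, where edgeR had 35 at an unadjusted p under 0.05. Leaving out 1 library gave 3 to 25 calls, 1 to 19 higher and 1 to 6 lower; 5 of these 6 fits gave 6 or fewer, with fewer samples entering. Otherwise the cause was not tested. No called member changed sign in any fit. The numbers of members at 10 or more (136 to 160) and at 100 or more (62 to 111) stayed within 1.5 times of 152 and 85, also with other thresholds, and the median log2 fold change stayed between 0.10 and 0.19. No paired analysis was possible because the table by name carries no replicate numbers. Among members with a mean from 10 to 100, the median coefficient of variation was 31.6% with AVE0991, against 10.5% at 1000 or more. Low counts of the members piled up at 4 and 8.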
